A study of Homo sapiens with 12 samples.

Results

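The genes described are the 7 that encode subunits found in PBAF or in non-canonical BAF (ncBAF) and not in canonical BAF: ARID2, PBRM1, BRD7 and PHF10 for PBAF, and BRD9, BICRA and BICRAL for ncBAF. They were chosen by name, out of 35810 genes with estimated counts, and all 7 were among the 12821 genes that passed the filter on low counts. Polyadenylated RNA had been sequenced from HepG2, a cell line derived from a human liver tumour, in 4 groups of 3 libraries. ARID1B-KO cells, made by CRISPR/Cas9 editing of ARID1B, were given 5 µM sorafenib for 48 h or the equivalent DMSO vehicle (0.1% v/v), and wild-type (WT) cells were given the same 2 treatments. Sorafenib, a multikinase inhibitor that blocks RAF and the VEGF and PDGF receptors, is a drug for hepatocellular carcinoma. The series' design text calls the 3 replicates of a group biological, and the labels name neither the knockout clones nor the guide.

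SWI/SNF complexes use ATP to move or evict nucleosomes, and human cells build 3 kinds of them on a shared core. Canonical BAF holds ARID1A or ARID1B, which exclude each other. PBAF holds ARID2 in that place, together with the bromodomain proteins PBRM1 and BRD7 and the PHD finger protein PHF10. The smaller ncBAF holds no ARID subunit and is built around the bromodomain protein BRD9 and one of the paralogs BICRA (also called GLTSCR1) and BICRAL (GLTSCR1L). ARID1A, ARID1B and ARID2 are recurrently mutated in hepatocellular carcinoma. The comparisons bear on whether RNA of the other complexes' own subunits differed when ARID1B was targeted, when sorafenib was given, or both.

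Libraries held 19739582 to 29398257 estimated counts, and a member gene held at least 144 (BICRA) and at most 3797 (BRD7) in any library. ARID1B itself (chromosome 6, 156776020 to 157210779, GRCh38, plus strand) stood at 35.6, 25.9 and 26.5 CPM (counts scaled to library size) in ARID1B-KO with sorafenib and at 26.4, 28.0 and 27.6 CPM in ARID1B-KO with DMSO. It stood at 67.5, 69.1 and 62.3 CPM in WT with sorafenib and at 58.4, 61.9 and 66.7 CPM in WT with DMSO. Every ARID1B-KO library lay below every WT library. In counts with no correction for transcript length, ARID1B RNA remained at a fold of 0.443 in sorafenib (95% interval 0.374 to 0.524) and 0.438 in DMSO (0.370 to 0.519). The size of this fall depended on the transcript model. In DMSO its log2 value was -1.19, against -0.79 with a transcript length offset. In both treatments the fall was smaller with that offset and larger with protein-coding transcripts only. ARID1B was called lower under each of these settings. The hepatocyte label was checked on 11 markers, all of which were present, among them ALB (at least 30900 TPM, transcript abundance scaled for length), AFP (at least 19200 TPM) and HNF4A (at least 28.9 TPM). Their summed level moved with the groups, at 126000 to 165000 TPM in ARID1B-KO with sorafenib, 90400 to 105000 TPM in ARID1B-KO with DMSO, 95800 to 97600 TPM in WT with sorafenib and 69600 to 76400 TPM in WT with DMSO. Of markers of other cell types, PTPRC (leukocytes), KDR (endothelium), COL1A2 and DCN (fibroblasts) were listed at 0 in all 12 libraries. Others were not at 0. CD68 (leukocytes) stood at 10.9 to 24.9 TPM and PDGFRB (fibroblasts) at 0.108 to 7.62 TPM. VWF and CDH5 (endothelium) reached 1.58 and 1.41 TPM. The 6 fibroblast markers summed to 0.168 to 0.785 TPM in ARID1B-KO with sorafenib and 0.63 to 3.99 TPM in ARID1B-KO with DMSO. In WT they summed to 0.326 to 2.63 TPM with sorafenib and 4.48 to 7.74 TPM with DMSO. The 4 endothelial markers summed to at most 2.69 TPM. Of 4 bile duct markers, EPCAM, KRT19 and SOX9 were expressed and KRT7 reached at most 0.411 TPM. Their sum was 459 to 559 TPM in ARID1B-KO with sorafenib, 460 to 527 TPM in ARID1B-KO with DMSO, 409 to 451 TPM in WT with sorafenib and 421 to 477 TPM in WT with DMSO. The 5 leukocyte markers summed to 585 to 635 TPM in ARID1B-KO with sorafenib, 2330 to 2830 TPM in ARID1B-KO with DMSO, 965 to 1130 TPM in WT with sorafenib and 4140 to 5130 TPM in WT with DMSO, nearly all of it LYZ (565 to 5110 TPM). The part of these shifts in the results below was not tested. In bulk RNA, fewer cells with a transcript and less of it per cell cannot be told apart.

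The 7 genes differed widely in level. Per transcript length, as TPM summed over each gene's transcripts in the 12 libraries, BRD7 had a median of 93.3 TPM (76.6 to 108) and PHF10 67.9 TPM (53.6 to 77.3). PBRM1 stood at 10.3 TPM (9.26 to 13.0), BRD9 at 9.95 TPM (6.72 to 14.7) and ARID2, the subunit that defines PBAF, at 6.83 TPM (4.36 to 8.93). The ncBAF subunits BICRAL and BICRA were the scarcest members, at 2.76 TPM (2.22 to 3.52) and 0.589 TPM (0.317 to 1.62). For scale, ARID1A of canonical BAF had a median of 10.4 TPM (7.12 to 12.8). In these sums the ranges of BRD7 and PHF10 overlapped, as did those of BRD9 and ARID2, with BRD7 above PHF10 and BRD9 above ARID2 in all 12 libraries and PBRM1 above BRD9 in 5. These 3 orders depended on which transcripts were summed. With protein-coding transcripts only, a setting chosen after seeing the data, BRD7 was at a median of 63.0 TPM and PHF10 at 67.5 TPM, with PHF10 above BRD7 in 9 of 12 libraries. BRD9 was then at 4.05 TPM and ARID2 at 6.05 TPM, with ARID2 above BRD9 in 11 libraries, and PBRM1, at 9.85 TPM, was above BRD9 in all 12. The short transcripts left out held more of the TPM than of the counts: BRD7-204 (671 bases) held 22.3% to 40.8% of BRD7's TPM on 4.45% to 9.13% of its counts, and BRD9-218 (396 bases) up to 45.0% of BRD9's TPM on at most 4.58% of its counts. These neighbours could therefore not be ordered. The ranges of PHF10 and PBRM1, of ARID2 and BICRAL, and of BICRAL and BICRA did not overlap in the sums over all transcripts, and with protein-coding transcripts only ARID2 was above BICRAL in 11 of 12 libraries.

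**Figure D1:**
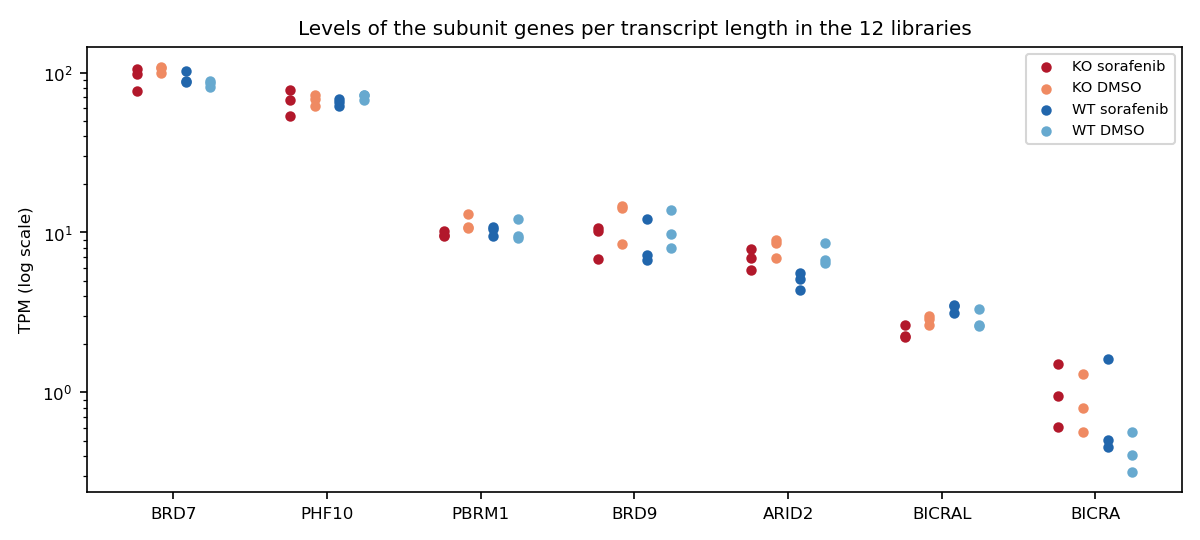
TPM on a log axis (y) for the 7 subunit genes (x, from the highest to the lowest median), with 1 point per library and a colour per group of 3 libraries. BRD7 and PHF10 lie between 53.6 and 108 TPM in every library, PBRM1, BRD9 and ARID2 between 4.36 and 14.7 TPM, BICRAL between 2.22 and 3.52 TPM and BICRA at or below 1.62 TPM.

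The members varied little between the groups. The span between the highest and the lowest group mean, on the log2 CPM scale, was 0.11 for PBRM1, 0.13 for PHF10, 0.14 for BRD7, 0.22 for BRD9, 0.38 for ARID2, 0.47 for BICRA and 0.55 for BICRAL. The median of the 7 was 0.22, against 0.63 over all 12821 genes tested, and each of the 7 was below that median of all genes. These genes were not matched to the members for level. Of the tested genes, 1.2% had a smaller span than PBRM1, 2.2% than PHF10 and 42.7% than BICRAL. ARID1B, the targeted gene, had a span of 1.28, and 80.7% of genes had a smaller one.

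**Figure D2:**
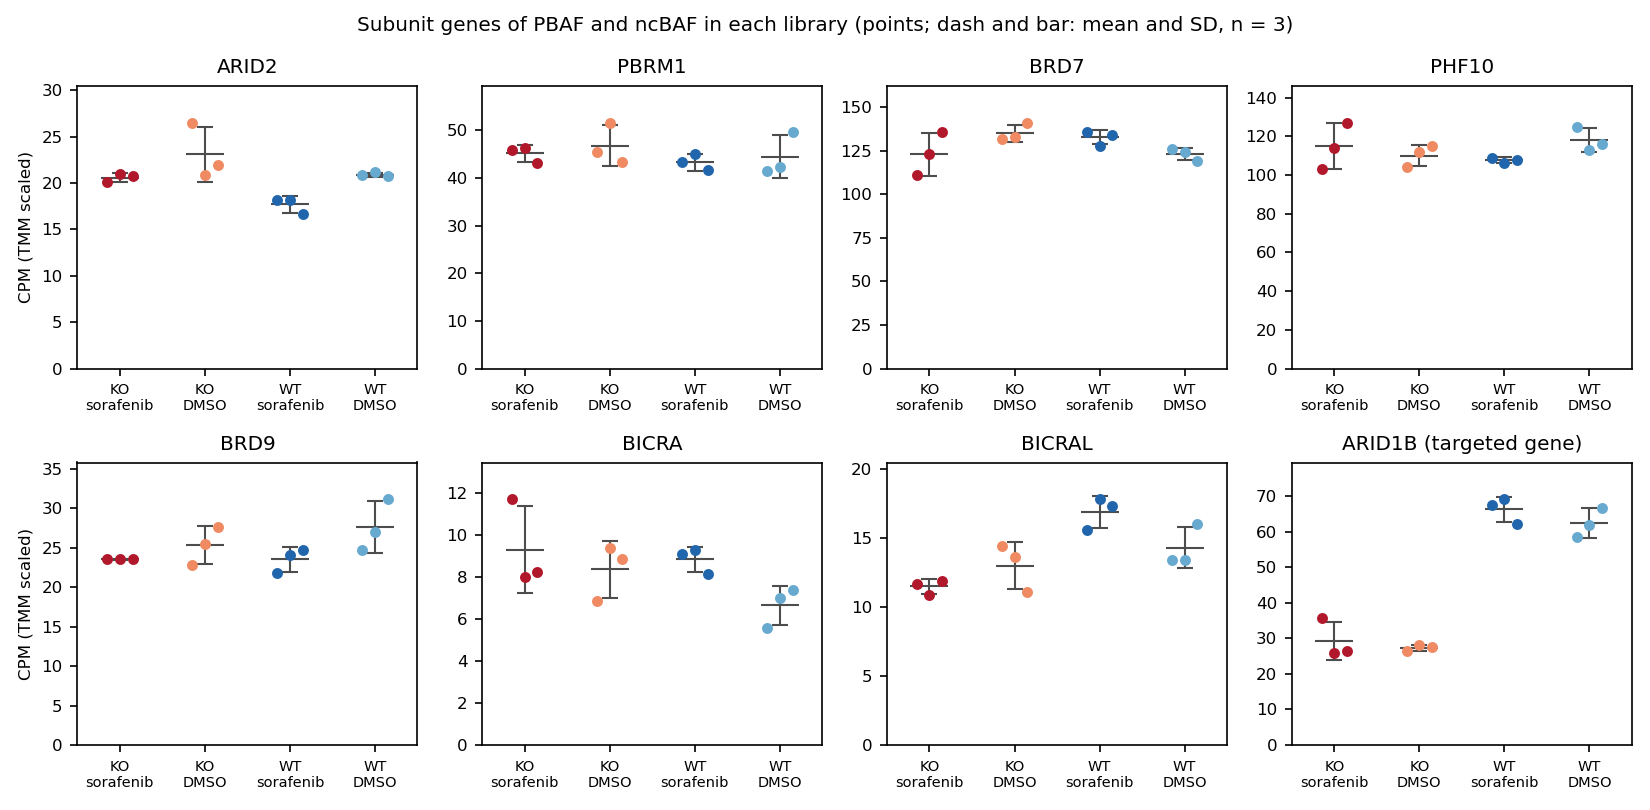
CPM (y, from 0, each panel with its own scale) of the 7 subunit genes and of ARID1B in the 4 groups (x), with 1 point per library and a dash and bar for the mean and SD over n = 3. BICRAL is at 10.9 to 11.9 CPM in the ARID1B-KO libraries with sorafenib, all below the 15.6 to 17.8 CPM of the WT libraries with sorafenib, while PBRM1 stays between 41.4 and 51.6 CPM in all 12.

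Few members passed the test, which was edgeR's quasi-likelihood test with p-values adjusted over all tested genes and a call at an adjusted p under 0.05. With sorafenib in WT edgeR called 35.4% of the 12821 genes and 0 of the 7 members, 3 of which (ARID2, BRD9 and BICRA) had an unadjusted p under 0.05, and DESeq2, run as an alternative, also called 0. Groups did not overlap for 50.8% of all genes and for 4 of the 7 members, lower for ARID2 and PHF10 and higher for BRD7 and BICRA. With sorafenib in ARID1B-KO edgeR called 46.7% of genes and 0 members, with 0 members at an unadjusted p under 0.05 and 0 called by DESeq2. Groups did not overlap for 52.9% of genes there and for 0 members.

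Between genotypes in sorafenib edgeR called 27.0% of genes and 1 of 7 members (14.3%), BICRAL, with ARID2 the other at an unadjusted p under 0.05 and 1 called by DESeq2. There was no overlap of the groups for 42.7% of genes and for 2 members, ARID2 (higher) and BICRAL (lower). Between genotypes in DMSO edgeR called 27.8% of genes and 0 members, with 0 at an unadjusted p under 0.05 and 0 by DESeq2, with no overlap of the groups for 42.2% of genes and for 1 member, BRD7 (higher). The interaction called 0.835% of genes and 0 members, with BICRAL alone at an unadjusted p under 0.05 and 0 by DESeq2. The 7 folds of ARID1B-KO over WT were 0.681 to 1.17 in sorafenib, with the lowest 95% bound at 0.569 and the highest at 1.37, and 0.911 to 1.26 in DMSO, with bounds of 0.761 and 1.64. With sorafenib they were 0.884 to 1.11 in ARID1B-KO (bounds 0.737 and 1.45) and 0.844 to 1.33 in WT (0.732 and 1.74), and the ratios of these responses were 0.748 to 1.14 (0.575 and 1.37). These intervals come from counts with no correction for transcript length. With a transcript length offset, log2 values of several members changed, and part of those of BICRA and ARID2 are given with these genes. BICRA was then at 0.29 between genotypes in sorafenib (0.08 without the offset) and -0.66 for the interaction (-0.26). ARID2 was at 0.36 for the interaction (0.08) and BRD9 at -0.33 for sorafenib in ARID1B-KO (-0.10). BRD7 was at 0.18 for sorafenib in WT (0.11) and 0.22 between genotypes in DMSO (0.14). None of these was called.

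Among the PBAF genes, ARID2 was examined first. ARID2 (ENSG00000189079.18, chromosome 12, 45729706 to 45908040, plus strand), the AT-rich interaction domain subunit, had 20.1, 21.0 and 20.8 CPM in ARID1B-KO with sorafenib and 26.5, 20.9 and 22.0 CPM in ARID1B-KO with DMSO. In WT it had 18.2, 18.2 and 16.7 CPM with sorafenib and 20.9, 21.2 and 20.8 CPM with DMSO. The WT libraries with sorafenib were the 3 lowest of the 12, below both the WT libraries with DMSO and the ARID1B-KO libraries with sorafenib. The log2 fold change of sorafenib against DMSO was -0.17 ± 0.09 (SE, n = 3 per group) in ARID1B-KO (edgeR adjusted p = 0.17) and -0.24 ± 0.09 in WT (adjusted p = 0.062). ARID1B-KO against WT gave 0.22 ± 0.10 in sorafenib (edgeR adjusted p = 0.106) and 0.14 ± 0.09 in DMSO (adjusted p = 0.285). None of these passed the threshold of 0.05 on the adjusted p. With a transcript length offset, ARID2 was at -0.48 for sorafenib in WT (adjusted p = 0.0614) and at 0.45 between genotypes in sorafenib (adjusted p = 0.0936), also not called. With no offset and with replicate 1 of ARID1B-KO with DMSO left out, the library at 26.5 CPM, 2 contrasts passed the threshold. The edgeR adjusted p was then 0.0245 for sorafenib in WT and 0.0393 for genotype in sorafenib.

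PBRM1 (ENSG00000163939.19, chromosome 3, 52545352 to 52685917, minus strand), which carries the bromodomains that give PBAF its name polybromo, varied least. It had 46.0, 46.4 and 43.2 CPM in ARID1B-KO with sorafenib, 45.5, 51.6 and 43.3 CPM in ARID1B-KO with DMSO, 43.3, 45.1 and 41.6 CPM in WT with sorafenib, and 41.4, 42.4 and 49.7 CPM in WT with DMSO. All 4 groups overlapped, and the 4 log2 fold changes lay between -0.05 and 0.07, each with an SE of 0.09 and an adjusted p of at least 0.586 by edgeR. The fold of ARID1B-KO over WT was 1.04 in sorafenib (95% interval 0.909 to 1.2) and 1.05 in DMSO (0.918 to 1.21).

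BRD7 (ENSG00000166164.17, chromosome 16, 50313487 to 50368988, minus strand), the paralog of BRD9 that sits in PBAF, had 111, 123 and 136 CPM in ARID1B-KO with sorafenib and 132, 133 and 141 CPM in ARID1B-KO with DMSO. In WT it had 136, 128 and 134 CPM with sorafenib and 126, 124 and 119 CPM with DMSO. The WT libraries with DMSO lay below those of ARID1B-KO with DMSO and of WT with sorafenib, while the ARID1B-KO libraries with sorafenib overlapped the other groups. Sorafenib gave a log2 fold change of -0.13 ± 0.08 in ARID1B-KO and 0.11 ± 0.08 in WT, and the difference between these responses was -0.24 ± 0.11 (edgeR adjusted p = 0.335). Without replicate 3 of ARID1B-KO with sorafenib the first of these became -0.21 (adjusted p = 0.0467). PHF10 (ENSG00000130024.15, chromosome 6, 169703902 to 169725566, minus strand), a PHD finger subunit, had 103, 114 and 127 CPM in ARID1B-KO with sorafenib, 104, 112 and 115 CPM in ARID1B-KO with DMSO, 109, 106 and 108 CPM in WT with sorafenib and 125, 113 and 116 CPM in WT with DMSO. In WT the sorafenib libraries lay below the DMSO libraries, at -0.13 ± 0.08 on the log2 scale (edgeR adjusted p = 0.243), and the other 3 comparisons overlapped. As a gene PHF10 passed no test, but its transcripts are described separately below.

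Of the ncBAF genes, BRD9 (ENSG00000028310.18, chromosome 5, 850291 to 892801, minus strand), whose bromodomain marks the complex, had 23.6, 23.5 and 23.6 CPM in ARID1B-KO with sorafenib, 22.8, 25.5 and 27.6 CPM in ARID1B-KO with DMSO, 21.8, 24.1 and 24.7 CPM in WT with sorafenib, and 24.7, 27.0 and 31.1 CPM in WT with DMSO. Its groups overlapped in every comparison. ARID1B-KO against WT gave a log2 difference of 0.00 ± 0.10 in sorafenib (edgeR adjusted p = 0.992) and -0.12 ± 0.10 in DMSO (adjusted p = 0.386), and that of sorafenib in WT was -0.23 ± 0.10 (adjusted p = 0.0948). Without replicate 1 of WT with DMSO the last of these passed the threshold (-0.30, adjusted p = 0.0441).

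BICRA (ENSG00000063169.12, chromosome 19, 47608196 to 47703277, plus strand), a scaffold of ncBAF, was the scarcest member. It had 11.7, 7.98 and 8.25 CPM in ARID1B-KO with sorafenib, 6.85, 9.39 and 8.85 CPM in ARID1B-KO with DMSO, 9.08, 9.29 and 8.16 CPM in WT with sorafenib, and 5.58, 6.98 and 7.38 CPM in WT with DMSO. In WT the 3 sorafenib libraries lay above the 3 DMSO libraries, at 0.41 ± 0.18 on the log2 scale (fold 1.33, 95% interval 1.02 to 1.74, edgeR adjusted p = 0.0878). It passed at 0.42 in a fit of those 2 groups alone (adjusted p = 0.0478), and also without replicate 1 of ARID1B-KO with sorafenib (0.42, adjusted p = 0.0461). In ARID1B-KO the sorafenib and DMSO libraries overlapped (0.16 ± 0.18, adjusted p = 0.502). The size of these values depended on the transcript model. With a transcript length offset BICRA was at 0.37 for sorafenib in ARID1B-KO (edgeR adjusted p = 0.63) and 1.03 in WT (adjusted p = 0.19). Between genotypes in DMSO it was at 0.96 with the offset (edgeR adjusted p = 0.237), against 0.33 without it, and was called in neither.

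BICRAL (ENSG00000112624.14, chromosome 6, 42782052 to 42868558, plus strand), the paralog of BICRA, was the only member called in any of the 35 tests of 7 genes in 5 comparisons, in a contrast that called 27.0% of all genes. It had 11.7, 10.9 and 11.9 CPM in ARID1B-KO with sorafenib and 14.4, 13.6 and 11.1 CPM in ARID1B-KO with DMSO. In WT it had 15.6, 17.8 and 17.3 CPM with sorafenib and 13.4, 13.4 and 16 CPM with DMSO. The ARID1B-KO libraries with sorafenib lay below all 6 WT libraries, and the 2 DMSO groups overlapped. In sorafenib BICRAL was lower in ARID1B-KO than in WT, at -0.55 ± 0.12 on the log2 scale (fold 0.681, 95% interval 0.569 to 0.816, edgeR adjusted p = 0.00436). In DMSO the same contrast gave -0.14 ± 0.12 (adjusted p = 0.43). Sorafenib gave -0.18 ± 0.12 in ARID1B-KO (edgeR adjusted p = 0.25) and 0.24 ± 0.12 in WT (adjusted p = 0.135). The difference between the responses to sorafenib, which is also the difference between the genotype effects, was -0.42 ± 0.17, with an unadjusted p of 0.0282 and an adjusted p of 0.251, so the genotype effect was not shown to differ between treatments. The call in sorafenib held under all 19 alternatives tried, at -0.61 to -0.51.

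**Figure D3:**
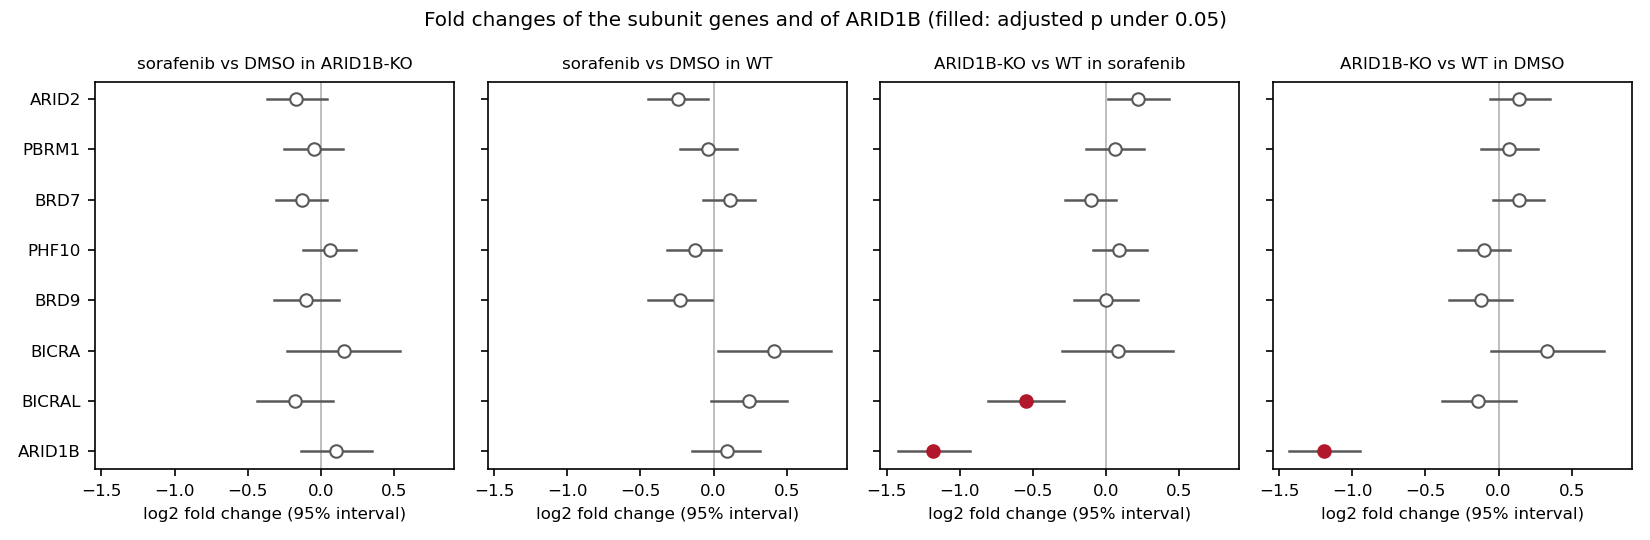
Log2 fold changes with 95% intervals (x) of the 7 subunit genes and of ARID1B (rows) in 4 comparisons (panels). Filled points passed an adjusted p of 0.05, and apart from ARID1B the only one is BICRAL at -0.55 in ARID1B-KO against WT in sorafenib.

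PHF10 held the only member transcript that edgeR called. The proteins of PHF10 are known in forms that end with a tandem of PHD fingers and in forms that stop before it. The 2 main transcripts, PHF10-205 (ENST00000612128) and PHF10-206 (ENST00000621772), together held 84.8% to 94.5% of the gene's TPM in every library. In GENCODE release 44 PHF10-206 is 1651 bases long and has 12 exons. PHF10-205 is 4395 bases long, has 9 exons, starts at another first exon and does not splice at the end of the 9th. Its coding sequence runs 18 bases past that point and stops, without the last 3 coding exons of PHF10-206 (chromosome 6, 169705616 to 169705724, 169705133 to 169705321, and 169704006 to 169704088 for the coding part of the last, minus strand). The coding sequence is 1131 bases in PHF10-205 and 1353 bases in PHF10-206. The point where the 2 forms part is shown because it separates them: lower case marks the last 60 coding bases of the 9th exon that both share, and capitals mark what follows in each, read 5′ to 3′ on the minus strand of GRCh38 chromosome 6, over 169710218 to 169710295 for PHF10-205 and from 169710295 down to 169705665, across an intron, for PHF10-206.
PHF10-205: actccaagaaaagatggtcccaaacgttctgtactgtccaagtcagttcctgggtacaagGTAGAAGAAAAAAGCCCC
PHF10-206: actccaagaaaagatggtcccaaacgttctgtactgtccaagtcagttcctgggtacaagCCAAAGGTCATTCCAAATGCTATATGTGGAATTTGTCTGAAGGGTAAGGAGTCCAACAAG

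**Figure D4:**
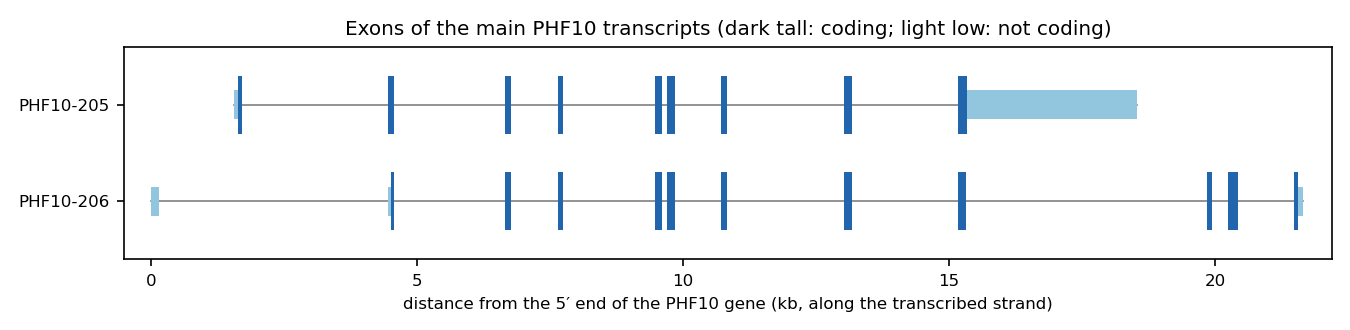
Exon map of PHF10-205 and PHF10-206, with the distance from the gene's 5′ end in kb on the x axis, coding parts dark and tall and other exon parts light and low. PHF10-205 has 9 exons, the last of them running on from 15.175 kb to 18.538 kb, and PHF10-206 has 12, the last 3 between 19.842 kb and 21.658 kb.

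As a share of PHF10's TPM, PHF10-205 held 49.2%, 46.2% and 51.1% in ARID1B-KO with sorafenib and 42.9%, 51.0% and 45.9% in ARID1B-KO with DMSO. In WT it held 32.2%, 30.8% and 29.6% with sorafenib and 43.3%, 40.1% and 37.5% with DMSO. The WT libraries with sorafenib were the 3 lowest, and the 2 DMSO groups overlapped narrowly. PHF10-206 held 40.7%, 44.2% and 43.4% in ARID1B-KO with sorafenib, 41.9%, 40.4% and 47.0% in ARID1B-KO with DMSO, 55.9%, 60.3% and 59.5% in WT with sorafenib and 42.9%, 51.7% and 54.1% in WT with DMSO. It was highest in the WT libraries with sorafenib, the mirror of PHF10-205. The 2 forms together held 84.8% to 94.5% of PHF10's TPM, so their shares are not independent of each other. PHF10-205 was the larger form in the 3 ARID1B-KO libraries with sorafenib and the smaller form in the 3 WT libraries with sorafenib. In estimated counts the longer PHF10-205 held 1558, 1525 and 1686 in ARID1B-KO with sorafenib and 1457, 1096 and 1214 in WT with sorafenib, and PHF10-206 held 680, 765 and 749 in ARID1B-KO with sorafenib and 1216, 905 and 1072 in WT with sorafenib.

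**Figure D5:**
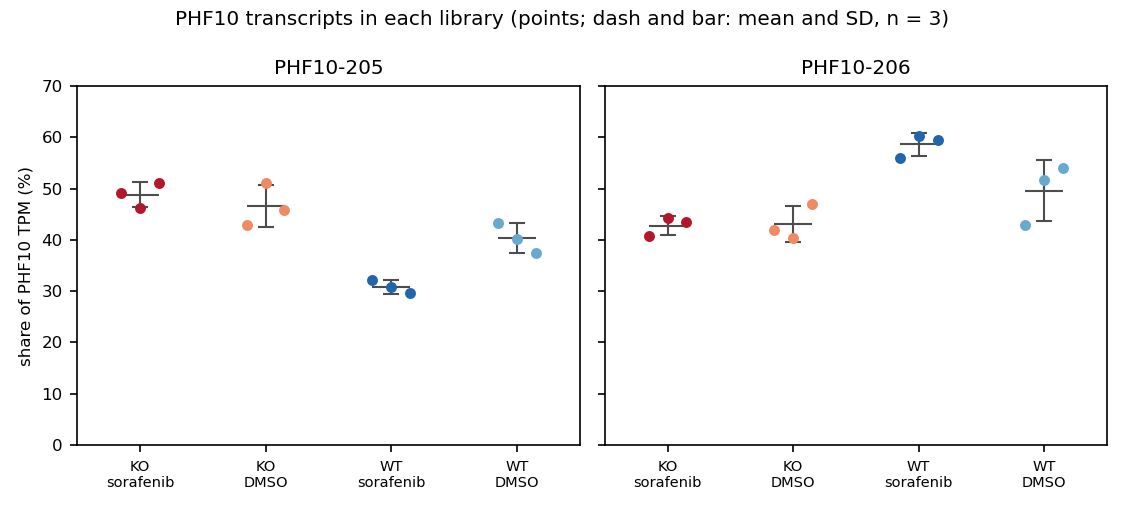
Share of the gene's TPM (y, percent) held by PHF10-205 (left) and PHF10-206 (right) in the 4 groups (x), with 1 point per library and a dash and bar for the mean and SD over n = 3. In sorafenib PHF10-205 is at 46.2% to 51.1% in ARID1B-KO and at 29.6% to 32.2% in WT.

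In the test over 50041 transcripts, PHF10-205 was higher in ARID1B-KO than in WT under sorafenib, at 0.52 ± 0.10 on the log2 scale (edgeR adjusted p = 0.0323), and PHF10-206 gave -0.36 ± 0.12 (adjusted p = 0.165). The call on PHF10-205 was close to the threshold. It was lost with no filter on low counts (adjusted p = 0.0653), in a fit of the 2 groups alone (0.0865), with the replicate number as a block (0.0862) and without each of 10 of the 12 libraries (up to 0.134), at values of 0.41 to 0.59. It held with the libraries WT DMSO replicate 1 or ARID1B-KO sorafenib replicate 1 left out, and DESeq2 gave an adjusted p of 5.48e-05 to PHF10-205 and 0.029 to PHF10-206. In DMSO the contrast of genotypes was 0.10 ± 0.10 for PHF10-205 (edgeR adjusted p = 0.783), and sorafenib in WT gave -0.34 ± 0.10 (adjusted p = 0.142). The interaction was 0.42 ± 0.15 (adjusted p = 0.614), so the genotype effect on PHF10-205 was not shown to differ between treatments. As a gene PHF10 stood at 0.09 ± 0.08 in the same contrast (adjusted p = 0.449).

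Over all members, the files held 67 transcripts, of which 35 passed the filter and 19 held at least 10% of their gene's TPM in the mean of some group. In ARID1B-KO against WT in sorafenib, 1 of the 35 was called, PHF10-205, where 2.6% of all transcripts were, with 5 at an unadjusted p under 0.05 and 3 called by DESeq2 (ARID2-208, PHF10-205 and PHF10-206). ARID2-208 was listed at 0 in 6 of the 12 libraries, among them every library of ARID1B-KO with sorafenib. For it edgeR gave -9.33 ± 3.67 (adjusted p = 0.276). In the other comparisons edgeR called 0 of the 35. The background was 5.97% of transcripts for sorafenib in ARID1B-KO (1 member transcript at an unadjusted p under 0.05, 1 by DESeq2), 3.25% for sorafenib in WT (4 and 2), 2.79% for the genotypes in DMSO (5 and 4) and 0.0699% for the interaction (3 and 1). These shares are of edgeR calls on the adjusted p. The shares of all transcripts by unadjusted p or by DESeq2 are not given, so those member counts have no background of their own.

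PBRM1-203, the main PBRM1 transcript of 7523 bases, held 80.6%, 85.4% and 86.0% of the gene's TPM in ARID1B-KO with sorafenib and 71.1%, 72.8% and 87.7% in ARID1B-KO with DMSO, against 73.0%, 67.8% and 64.8% in WT with sorafenib and 69.6%, 67.8% and 64.4% in WT with DMSO. Within each treatment its share in ARID1B-KO lay above that in WT. The share is of a total that short transcripts can move: PBRM1-213, of 809 bases, held 1.67% to 4.04% in ARID1B-KO and 6.14% to 13.2% in WT, on counts of 2 to 6 in ARID1B-KO and 10 to 25 in WT. Neither was called by edgeR, with PBRM1-203 at 0.19 ± 0.08 in sorafenib (adjusted p = 0.298) and 0.23 ± 0.08 in DMSO (adjusted p = 0.196), and PBRM1-213 at -1.69 ± 0.68 in sorafenib (adjusted p = 0.267) and -1.92 ± 0.69 in DMSO (adjusted p = 0.207). DESeq2 called both in DMSO, PBRM1-203 with an adjusted p of 0.045 and PBRM1-213 with 0.0427.

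BRD7 was held by the coding transcript BRD7-202 (54.4% to 69.4% of TPM) and by BRD7-204, a 671-base transcript with no defined coding sequence, which held 22.3% to 40.8% of TPM but 4.45% to 9.13% of the counts. BICRAL was nearly all BICRAL-202, at 100% of TPM in 10 of the 12 libraries. BICRAL-201 took 10.2% in WT sorafenib replicate 2 and 35.8% in WT DMSO replicate 2. As a transcript BICRAL-202 was not called, at -0.48 ± 0.21 for ARID1B-KO against WT in sorafenib (edgeR adjusted p = 0.322). For ARID2, BRD9 and BICRA the division between transcripts changed from library to library within a group: 2 of 4 named ARID2 transcripts, 2 of 3 of BRD9 and all 4 of BICRA were listed at 0 in some libraries and not in others. ARID2-206, at 34.5% to 71.2% of TPM, was the largest ARID2 form by TPM in every library. In WT sorafenib replicate 2 the lead was narrow, at 34.5% against 34.3% for ARID2-201. By counts the order differed in some libraries: in that library ARID2-206 held 61 and the longer ARID2-201 held 198. The length of ARID2-206 is 4356 bases as deposited and 4736 bases in GENCODE.

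Since each complex draws on alternatives, 3 ratios of TPM were compared. ARID2 over ARID1A was 0.582, 0.804 and 0.717 in ARID1B-KO with sorafenib, 1.03, 0.541 and 0.763 in ARID1B-KO with DMSO, 0.708, 0.360 and 0.592 in WT with sorafenib and 1.21, 0.606 and 0.559 in WT with DMSO. All groups overlapped, and in an exact two-sided permutation test that kept treatments apart the mean log2 ratio was 0.20 higher in ARID1B-KO (p = 0.465, adjusted over 6 tests 0.558). ARID2 as a share of the summed TPM of ARID1A, ARID1B and ARID2 averaged 26.3% ± 2.64 in ARID1B-KO with sorafenib, 28.1% ± 6.40 in ARID1B-KO with DMSO, 15.7% ± 2.50 in WT with sorafenib and 21.3% ± 3.66 in WT with DMSO (SD, n = 3 each), a share whose total holds the targeted gene.

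BRD9 over BRD7 was 0.0896, 0.109 and 0.0959 in ARID1B-KO with sorafenib, 0.138, 0.0846 and 0.133 in ARID1B-KO with DMSO, 0.0698, 0.140 and 0.0754 in WT with sorafenib and 0.120, 0.0927 and 0.155 in WT with DMSO. In ARID1B-KO with DMSO, BRD9-218 held 45.0% of BRD9's TPM on 22 counts in replicate 1, where the ratio was 0.138, and was listed at 0 in replicate 2, where it was 0.0846. BRD9 was the scarcer paralog in all 12 libraries, and the log2 ratio differed by 0.03 between genotypes (exact permutation p = 0.875) and by -0.33 between sorafenib and DMSO (p = 0.165, adjusted 0.443). BICRA over BICRAL was 0.669, 0.275 and 0.359 in ARID1B-KO with sorafenib, 0.196, 0.438 and 0.302 in ARID1B-KO with DMSO, 0.520, 0.131 and 0.142 in WT with sorafenib and 0.216, 0.121 and 0.121 in WT with DMSO. The log2 ratio was 0.97 higher in ARID1B-KO (exact permutation p = 0.05, adjusted 0.3, with 0.005 the smallest p these permutations allow), which did not pass the adjustment. This ratio leans on the transcript model: BICRA-202 is 532 bases long in the deposited tables and 5687 bases in GENCODE release 44, and in WT sorafenib replicate 1, where the ratio was 0.520, BICRA-202 held 66.3% of BICRA's TPM on 20 counts.

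Subunits that belong to more than 1 kind of SWI/SNF complex, and other chromatin genes, were set beside the members. Of 16 such shared subunits, edgeR called 3 higher and 3 lower in ARID1B-KO against WT in sorafenib (median log2 fold change -0.05, against 0.00 over all genes) and 4 higher and 2 lower in DMSO (median 0.16, against 0.01). That is 37.5% of the list under each treatment, against 27.0% of all genes in sorafenib and 27.8% in DMSO. SMARCA2, the alternative ATPase to SMARCA4, stood at 20.2 ± 1.46 CPM in ARID1B-KO with sorafenib and 16.4 ± 1.67 CPM in ARID1B-KO with DMSO, against 45.7 ± 1.17 CPM in WT with sorafenib and 40.6 ± 4.23 CPM in WT with DMSO (SD, n = 3 each). It fell in ARID1B-KO by 1.18 on the log2 scale in sorafenib (edgeR adjusted p = 2.84e-06) and by 1.31 in DMSO (adjusted p = 1.24e-06). The scaffold subunit SMARCC2 was also lower in ARID1B-KO, at -0.51 ± 0.10 in sorafenib and -0.71 ± 0.10 in DMSO, and its paralog SMARCC1 was lower in sorafenib (-0.44 ± 0.08). BCL7A was higher in ARID1B-KO in both treatments, at 0.41 ± 0.11 in sorafenib and 0.84 ± 0.11 in DMSO.

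With sorafenib, the shared subunits gave 3 called higher and 6 lower of 16 in ARID1B-KO (median -0.03, against 0.01 over all genes) and 1 higher and 2 lower in WT (median 0.02, against -0.01). Those called were 56.2% of the list against 46.7% of all genes in ARID1B-KO, and 18.8% against 35.4% in WT. SMARCC2 rose in both, by 0.74 ± 0.10 in ARID1B-KO and 0.54 ± 0.10 in WT, and BCL7B fell in both (-0.70 ± 0.10 and -0.33 ± 0.10). SMARCD3 rose in ARID1B-KO (2.33 ± 0.43) at a low level, 1.35 ± 0.177 CPM with sorafenib against 0.262 ± 0.132 CPM with DMSO. ACTL6A, an actin-related subunit, was lower with sorafenib in both, at -0.66 ± 0.14 in ARID1B-KO and -0.49 ± 0.14 in WT.

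Of the 5 subunits found only in canonical BAF, ARID1B, the targeted gene, was the only one called between genotypes, lower under both treatments. That is 1 of 5 under each treatment, against 27.0% of all genes in sorafenib and 27.8% in DMSO. DPF2 was the only one called with sorafenib, in ARID1B-KO (0.19 ± 0.07, edgeR adjusted p = 0.0441), where 46.7% of all genes were called. With sorafenib in WT edgeR called 0 of the 5, against 35.4% of all genes. DPF2 alone was at an unadjusted p under 0.05 there and was called by DESeq2. Whether a list of 5 differs from these shares was not tested. Of 20 remodellers of other families, edgeR called 3 higher and 5 lower with sorafenib in ARID1B-KO (40.0% of the list against 46.7% of all genes, median -0.08 against 0.01) and 3 higher and 6 lower in WT (45.0% against 35.4%, median -0.05 against -0.01). BAZ1A and HELLS, both known from replication and heterochromatin, and CHD7 fell in both genotypes (BAZ1A by 0.79 ± 0.10 on the log2 scale in ARID1B-KO and 0.59 ± 0.10 in WT). Between genotypes it called 1 higher and 2 lower in sorafenib (15% against 27.0%) and 2 lower in DMSO (10.0% against 27.8%), with BPTF of the NURF complex lower in both (-0.53 ± 0.08 and -0.39 ± 0.08) and EP400 lower in DMSO (-0.87 ± 0.19).

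BRD7, BRD9 and PBRM1 are bromodomain proteins, and 15 other bromodomain genes were tested. In ARID1B-KO against WT edgeR called 5 of the 15 lower and 0 higher under each treatment (medians -0.28 in sorafenib, against 0.00 over all genes, and -0.06 in DMSO, against 0.01), which is 33.3% of the list in each, against 27.0% of all genes in sorafenib and 27.8% in DMSO, and 0 were higher at an unadjusted p under 0.05 or by DESeq2. In sorafenib these included BRPF3 (-0.76 ± 0.12), TAF1 (-0.56 ± 0.11) and BRD2 (-0.70 ± 0.17), and in DMSO KAT2B (-2.29 ± 0.31), BRPF3 (-0.56 ± 0.12) and BRD8 (-0.45 ± 0.11). With sorafenib, ATAD2 fell in both genotypes (-1.04 ± 0.09 in ARID1B-KO and -0.96 ± 0.09 in WT) and KAT2B rose in both (2.78 ± 0.31 and 1.14 ± 0.26). KAT2B was at a low level throughout, with means of 2.19 CPM in ARID1B-KO with sorafenib and 0.313 CPM in ARID1B-KO with DMSO. In WT its means were 3.4 CPM with sorafenib and 1.55 CPM with DMSO. The interaction called 0 genes of each of these 4 lists, with 4 shared subunits, 0 canonical BAF subunits, 2 other remodellers and 4 bromodomain genes at an unadjusted p under 0.05 and 1 gene, of the bromodomain list, called by DESeq2.

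For 6 members, the genes whose pattern over the 12 libraries was most like theirs were found by the root mean square (RMS) difference of centred log2 CPM among 10013 genes averaging 5 CPM or more. They were SOCS5 for ARID2 (RMS difference 0.061), UBAP2 for PBRM1 (0.049), RHOA for BRD7 (0.045), FAM177A1 for PHF10 (0.055), FAM83G for BICRA (0.128) and ILRUN for BICRAL (0.090). For scale, a member's own RMS deviation was 0.091 (PHF10) to 0.259 (BICRA). Members were not candidates.

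The promoters of 6 of the 7 members, other than ARID2, were found in RefSeq (GRCh38.p14), as 11 windows of 250 bases before to 50 bases after an annotated start, some of which overlap. The SP1 box GGGCGG was present on either strand in 10 of the 11, against 45.0% of all 35116 promoters, with 7 matches at PHF10, while the GC content of the windows was 48.3% to 85.3%, against a median of 58.7% over all promoters. The PHF10 window (chromosome 6, 169724451 to 169724750) holds neither the start of PHF10-205 (169724005) nor that of PHF10-206 (169725566). The ETS core CCGGAAG was found in 1 (BRD9; 10.3% of all promoters), the E-box CACGTG in 1 (PBRM1; 7.26%), and the letters GCGCATG of the NRF1 motif and AAGATGG of the YY1 motif in 0 (4.43% and 5.84%). These are matches of letters and not sites of binding.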

How the data were processed

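Polyadenylated RNA of 12 HepG2 libraries was used, grouped by title. Per the labels' protocols, libraries were made from 750 ng of total RNA with 9 PCR cycles and read as 75 bp pairs. The authors deposited, per the file headers, a Salmon table for each library with each transcript's length, effective length, estimated count and TPM; estimated counts are not normalized, and TPM deposited by the authors are scaled to a fixed total within a library. The submitters' processing notes name Salmon, DESeq2 1.46.0 and GRCh38, and the Salmon version and bias settings are not given in the sources used here. Salmon divides reads that fit several transcripts, so transcript values are estimates. The tables' length of 6 of the 67 member transcripts differs from GENCODE release 44, and the exact annotation release behind the deposited values is uncertain. The 10 pseudogenes named after a member held at most 4.48 counts in a library.

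Transcripts were matched to GENCODE 44 by unversioned identifier (165533 of 177456, 93.3%). The others held 2.87% to 3.20% of counts and were left out. Counts were summed per gene and rounded. One edgeR 4.0.16 quasi-likelihood fit (robust, TMM, filterByExpr, 4 group means, R 4.3.3) over 12821 genes gave the 5 contrasts, with Benjamini-Hochberg adjustment over all genes and a call at an adjusted p under 0.05; transcripts were fitted likewise. CPM use TMM library sizes. SE is the size of the log2 fold change over √F, F being edgeR's test statistic. The p-values measure the spread between libraries said to be biological replicates. The procedure was also run on simulated counts, with the same spread for every feature and effects placed only on well-counted ones. Those simulations placed no effect on sparse transcripts, and their outcome is not given here. DESeq2 1.42.0, RLE normalization, no filter on low counts, a transcript length offset, protein-coding transcripts only, fits of 2 groups, a replicate block and leaving out each library were the alternatives.

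The 7 genes, ARID1B, transcripts with at least 10% of their gene's TPM in the mean of a group, up to 3 called genes per list and comparison with the smallest adjusted p, and the nearest gene to each member were to be named, and part of the list genes are printed; the nearest gene to BRD9 is not reported here. The members and lists were chosen with earlier results of these data known.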

Additional observations from a re-analysis of the deposited data

How the results depend on the processing

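The call on BICRAL held under every alternative, at edgeR adjusted p of 0.00302 to 0.0232. The median of all genes moved by at most 0.02 (log2) under other scalings. With a transcript length offset, the genes called over the whole table were 2885 for sorafenib in WT (main 4543), 2062 (3463) and 2195 (3563) between genotypes in sorafenib and DMSO, and 2 for the interaction (107). The interaction called 578 genes with DESeq2, 19 with protein-coding transcripts only and 5 to 138 without 1 library. Libraries of the same replicate number were at most weakly alike: 1 of 18 same-number pairs of libraries exceeded a correlation of 0.1 (-0.163 to 0.184), and 4 of 12 libraries were closest to their own number. These correlations do not show whether such libraries were prepared together. With the replicate block the interaction called 19 genes and the call on PHF10-205 was lost (adjusted p = 0.0862), leaving 0 member transcripts called between genotypes in sorafenib, as with no filter and a fit of 2 groups; it changed no other call of a member. Members called for sorafenib in WT were 1 in a fit of 2 groups, and without 1 library 0 to 1 in WT, 0 to 1 in ARID1B-KO and 1 to 2 between genotypes in sorafenib. Member transcripts called by DESeq2 were 1 for sorafenib in ARID1B-KO, 2 in WT, 3 between genotypes in sorafenib, 4 in DMSO and 1 for the interaction. The share of all transcripts that DESeq2 called is not given, so these counts have no background beside them. Without 1 library, edgeR called 0 to 1 member transcripts between genotypes in sorafenib.

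Values near 0 changed sign, none of them called. With the length offset PBRM1 was at 0.06 for sorafenib in WT and -0.07 between genotypes in sorafenib, BRD9 at 0.19 between genotypes in DMSO and -0.12 for the interaction, and ARID1B at -0.02 for sorafenib in ARID1B-KO and -0.13 for the interaction. With protein-coding transcripts only, ARID2 was at 0.10 for sorafenib in ARID1B-KO, BICRA at -0.14 between genotypes in sorafenib and PBRM1 at 0.02 for the interaction. Without 1 library, PBRM1 spanned -0.09 to 0.05 (sorafenib in WT), -0.09 to 0.04 (sorafenib in ARID1B-KO), -0.00 to 0.16 (genotypes in DMSO) and -0.10 to 0.07 (interaction), PHF10 -0.02 to 0.15 and ARID1B -0.05 to 0.19 (sorafenib in ARID1B-KO), BICRA -0.03 to 0.26 (sorafenib in ARID1B-KO) and -0.12 to 0.17 (genotypes in sorafenib), BRD9 -0.05 to 0.04 (genotypes in sorafenib), ARID1B -0.14 to 0.10 (interaction) and BICRAL-202 -0.11 to 0.30 (genotypes in DMSO). The ratio of BRD9 to BRD7 between genotypes was -0.07 on counts and -0.08 to 0.15 without 1 library. The cause of these shifts was not tested. Members held 144 to 3797 counts in a library, with BICRA and BICRAL the lowest.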
